A study of Mus musculus with 10 samples.

Results

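Kinesins are motor proteins that use ATP to walk along microtubules or to take them apart. One branch of the family builds the mitotic spindle, moves chromosomes and separates the daughter cells, and the genes of this branch are switched on as cells approach division. Another branch carries vesicles and organelles in resting and dividing cells alike, and a further one builds or trims the cilium, the antenna through which fibroblasts receive Hedgehog signals. The kinesin genes were measured in Zbtb4 knock-out and wild-type fibroblasts; Zbtb4 encodes a transcription factor of the Kaiso family, which recognises methylated CpG dinucleotides, and the study asked which transcripts depend on it.

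The members were chosen by symbol alone, as every gene named Kif or Kifc followed by a number, and Kifap3, which encodes an associated protein without a motor, was left out. They numbered 42 of 22180 genes. By textbook role, 14 were listed for mitosis and cytokinesis, 13 for cargo, 10 for the cilium and 5 apart from these groups. The last 5 include the pseudogene Kif4-ps and Kif2a, which acts at spindle poles as well as in neurons. The Zbtb4 knock-out group and the wild-type group each held 5 arrays of total RNA from mouse embryonic fibroblasts, primary connective tissue cells prepared at embryonic day 13.5. The labels name dorsal skin as the source and also describe mincing the embryos after the head and organs were taken out. The labels give no strain, passage number or description of the deleted part of Zbtb4, and leave it unsaid whether each array of a genotype stands for its own embryo. The p-values therefore reflect the spread among these samples alone, part of which may be technical. Values are log2 expression values, and a difference is knock-out minus wild type on that scale.

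Zbtb4 had log2 values of 5.44, 5.76, 5.04, 5.62 and 5.39 on knock-out arrays 1 to 5, against 6.06, 6.03, 5.94, 6.23 and 6.11 on wild-type arrays 1 to 5. All knock-out arrays lay below all wild-type arrays, with a difference of -0.62 ± 0.12 (SE; limma adjusted p = 0.628 over all genes; exact two-sided permutation p = 0.00794, the smallest that 5 against 5 arrays can give). The probes may lie outside the deleted part, so the value does not measure intact transcript. Of the 10 fibroblast markers examined, all 10 lay above the dimmest 40% of genes, and the collagen gene Col1a2 ranged from 11.56 to 11.69 in knock-out and from 11.50 to 11.72 in wild-type cells. Genes on the Y chromosome were high on 2 arrays of each genotype, arrays 1 and 3, so the arrays of a genotype did not all come from 1 embryo.

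The promoters of the mitotic kinesins share short sequence elements that the choice of members did not use. The set of promoter windows used here (RefSeq, GRCm38.p6) held windows for 33 of the 42 kinesin genes, 37 windows in all. Each window ran from 250 bases before to 50 bases after a transcript start. The other kinesin genes had no window in this set. The cell cycle homology region, abbreviated CHR and known to bind repressor complexes that keep cell cycle genes silent in resting cells, has the core TTTGAA. This core occurred on either strand in 11 of 13 windows of mitotic kinesins (84.6%), in 3 of 24 windows of the other kinesins (12.5%) and in 17.9% of all 32851 windows in the table. Windows starting within 100 bases of the gene's outer edge gave 9 of 11 for mitotic kinesins, 1 of 12 for the others and 18.9% of all. The CCAAT box, bound by the factor NF-Y and often found next to a CHR, occurred in 9 of 13 mitotic windows, 8 of 24 others and 37.4% of all. Among 21 windows from a list of spindle partners of the mitotic kinesins, a list that also names the kinesin gene Cenpe, 14 held the CHR core and 15 the CCAAT box.

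The following stretches run from 130 bases before to 30 bases after the transcript start, on the gene's strand. They show 4 mitotic kinesins with both elements, 1 mitotic kinesin with neither, and the cargo kinesin Kif1b for contrast; capitals mark the CHR core (TTTGAA, or TTCAAA where it lies on the other strand) and the CCAAT box (ATTGG where it lies on the other strand).
Kif23, chr9:61946770-61946929, minus strand: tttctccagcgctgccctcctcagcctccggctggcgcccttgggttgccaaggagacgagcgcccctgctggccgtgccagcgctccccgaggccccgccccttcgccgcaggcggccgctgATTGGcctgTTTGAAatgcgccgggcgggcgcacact
Kif22, chr7:127042391-127042550, minus strand: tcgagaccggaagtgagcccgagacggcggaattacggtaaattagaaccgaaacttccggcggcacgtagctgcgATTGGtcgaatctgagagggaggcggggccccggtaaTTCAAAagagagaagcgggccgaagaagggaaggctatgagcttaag
Kif4, chrX:100625935-100626094, plus strand: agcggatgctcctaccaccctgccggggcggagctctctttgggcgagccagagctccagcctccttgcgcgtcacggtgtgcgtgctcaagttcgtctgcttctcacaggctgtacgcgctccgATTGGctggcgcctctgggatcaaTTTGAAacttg
Kif11, chr19:37376252-37376411, plus strand: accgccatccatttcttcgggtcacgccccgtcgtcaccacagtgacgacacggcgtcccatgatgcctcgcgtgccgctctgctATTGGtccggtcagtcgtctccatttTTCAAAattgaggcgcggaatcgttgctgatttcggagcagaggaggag
Kif18a, chr2:109280608-109280767, plus strand: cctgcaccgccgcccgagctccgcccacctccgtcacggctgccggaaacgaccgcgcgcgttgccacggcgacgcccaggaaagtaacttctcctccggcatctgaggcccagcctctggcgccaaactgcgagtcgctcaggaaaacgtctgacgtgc
Kif1b, chr4:149307704-149307863, minus strand: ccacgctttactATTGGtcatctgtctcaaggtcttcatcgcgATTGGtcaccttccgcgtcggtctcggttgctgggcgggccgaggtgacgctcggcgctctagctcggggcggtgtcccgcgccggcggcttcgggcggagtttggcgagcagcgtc

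In Kif11 the CHR core ended 14 bases before the transcript start and in Kif22 12 bases before it, while in Kif23 it began at base 3 and in Kif4 at base 20 after the start. In each of these 4 promoters a CCAAT box preceded the core. Of the 4 other motifs searched on both strands, the GC box bound by Sp factors (GGGCGG) lay in 6 of 13 mitotic windows, in 17 of 24 other kinesin windows and in 35.7% of all. An E2F core (GCGGGAA) lay in 0 of 13, 2 of 24 and 4.6%, the other CHR core (TTTAAA) in 2 of 13, 0 of 24 and 13.2%, and the site of the Zbtb4 relative Kaiso (TCCTGCNA) in 1 of 13, 0 of 24 and 5.0%. A match is a run of letters and not a measured binding site, neighbouring matches of different motifs may share bases, and the windows of the near-identical genes Kifc1 and Kifc5b are not independent. CpG dinucleotides, which Zbtb4 can bind when methylated, had a median of 26 per window in mitotic kinesins, 26 in the other kinesins and 7 over the table; methylation was not measured.

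No kinesin gene passed the threshold of an adjusted p under 0.05, where 0% of all genes passed. The limma adjusted p-values of the 42 genes ran from 0.804 to 0.998. At an unadjusted p under 0.05, the knock-out mean was lower for 5 of 42 kinesins, against 2.73% of all genes, and higher for 2 of 42, against 3.25% of all genes; in either direction it was 7 of 42, against 5.98% of all genes. All 5 lower genes were among the 14 mitotic kinesins, and none among the other 28. The role lists behind this split were drawn up with earlier results of these data known. No kinesin had groups of arrays without overlap, which 0.987% of all genes had. Without knock-out array 4 the number of kinesins at an unadjusted p under 0.05 was 3 in place of 7, without knock-out array 3 it was 4, and without wild-type array 1 it was 4.

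**Figure D1:**
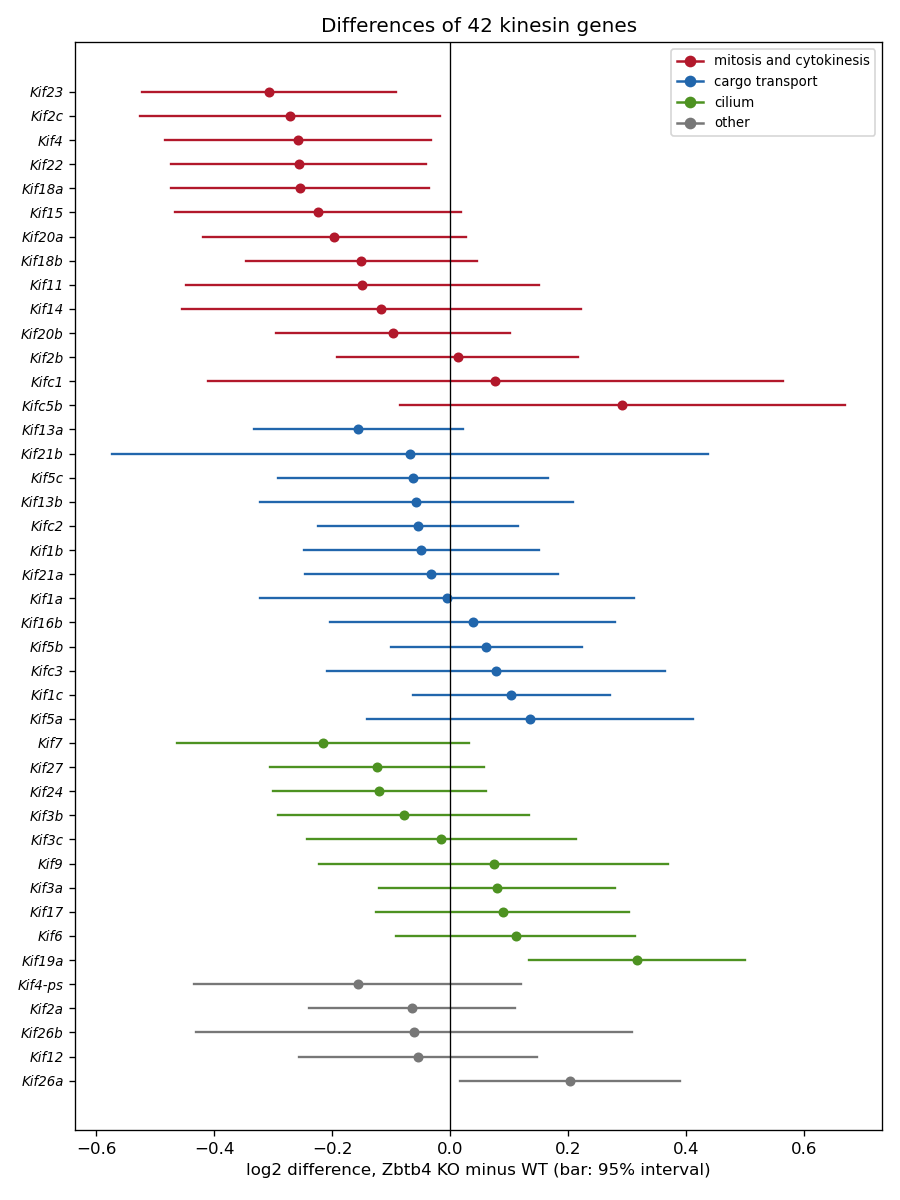
Log2 difference (horizontal axis, knock-out minus wild type) of each of the 42 kinesin genes, with its 95% interval as a bar and the role as the colour. Of the 14 mitotic kinesins 11 lie below 0, with Kif23 lowest at -0.31, while the other roles lie on both sides.

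The mitotic kinesins had mostly lower means in knock-out cells, by small amounts. Of the 14 members, 11 had a lower mean, where 49.3% of all genes did, and the median difference was -0.17, against 0.002 over all genes. Of the other 28 kinesins, 17 had a lower mean and the median was -0.040. Of the mitotic members 13 lay above the dimmest 40% of genes, and Kif2b did not. These genes vary together from array to array, so the counts are not 14 separate observations, and fewer dividing cells and less RNA per dividing cell cannot be told apart in bulk RNA.

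Kif23, a subunit of the centralspindlin complex that organises the midzone for cytokinesis, had the smallest unadjusted limma p-value of the mitotic group. Its log2 values were 7.49, 7.22, 7.22, 6.93 and 7.05 on knock-out arrays 1 to 5, against 7.59, 7.45, 7.55, 7.47 and 7.38 on wild-type arrays 1 to 5. Only knock-out array 1 reached into the wild-type range. The difference was -0.31 ± 0.10 (SE), a 1.24-fold lower signal with a 95% interval from -0.52 to -0.091 (limma adjusted p = 0.821; exact permutation p = 0.0317).

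Kif20a, which brings the chromosomal passenger complex to the midzone, had 7.51, 7.28, 7.29, 7.16 and 7.23 on the knock-out arrays, against 7.56, 7.73, 7.45, 7.53 and 7.18 on the wild-type arrays. The difference was -0.20 ± 0.10 (SE; limma adjusted p = 0.840). Wild-type array 5 lay below all knock-out arrays but array 4. The other cytokinesis kinesins Kif20b and Kif14, the partner of citron kinase, differed by -0.097 and -0.12. Kif14 ranged from 4.64 to 5.75 across the knock-out arrays, against 5.12 to 5.42 across the wild-type arrays, so its knock-out arrays held both the highest and the lowest value.

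Among the motors that act on chromosomes, Kif22, which pushes chromosome arms towards the spindle equator, had values of 6.48, 6.46, 6.58, 6.32 and 6.27 on the knock-out arrays, against 6.90, 6.73, 6.58, 6.76 and 6.41 on the wild-type arrays. Wild-type array 5 fell among the knock-out arrays, and the difference was -0.26 ± 0.10 (SE; limma adjusted p = 0.821; exact permutation p = 0.0476). Kif4, a chromokinesin encoded on the X chromosome that also shapes the central spindle, had 6.59, 6.17, 6.23, 6.31 and 6.31 on the knock-out arrays, against 6.51, 6.49, 6.90, 6.52 and 6.49 on the wild-type arrays. Knock-out array 1 lay above 4 of the wild-type arrays, the other knock-out arrays lay below all of them, and the difference was -0.26 ± 0.10 (SE; limma adjusted p = 0.821; exact permutation p = 0.0397).

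Kif18a, which dampens chromosome movements at metaphase, had 5.79, 5.70, 5.61, 5.24 and 5.63 on the knock-out arrays, against 5.87, 5.99, 5.79, 5.87 and 5.71 on the wild-type arrays. The difference of -0.25 ± 0.10 (SE; limma adjusted p = 0.821; exact permutation p = 0.0159) came to -0.17 without knock-out array 4, the lowest of all. Its relative Kif18b, which controls the outer spindle microtubules, differed by -0.15. Kif2c, which takes microtubules apart at centromeres, had 6.76, 6.60, 6.53, 6.15 and 6.38 on the knock-out arrays, against 6.87, 6.97, 6.73, 6.68 and 6.52 on the wild-type arrays. Its groups overlapped through knock-out array 1 and wild-type array 5, and the difference was -0.27 ± 0.12 (SE; limma adjusted p = 0.825; exact permutation p = 0.0794).

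**Figure D2:**
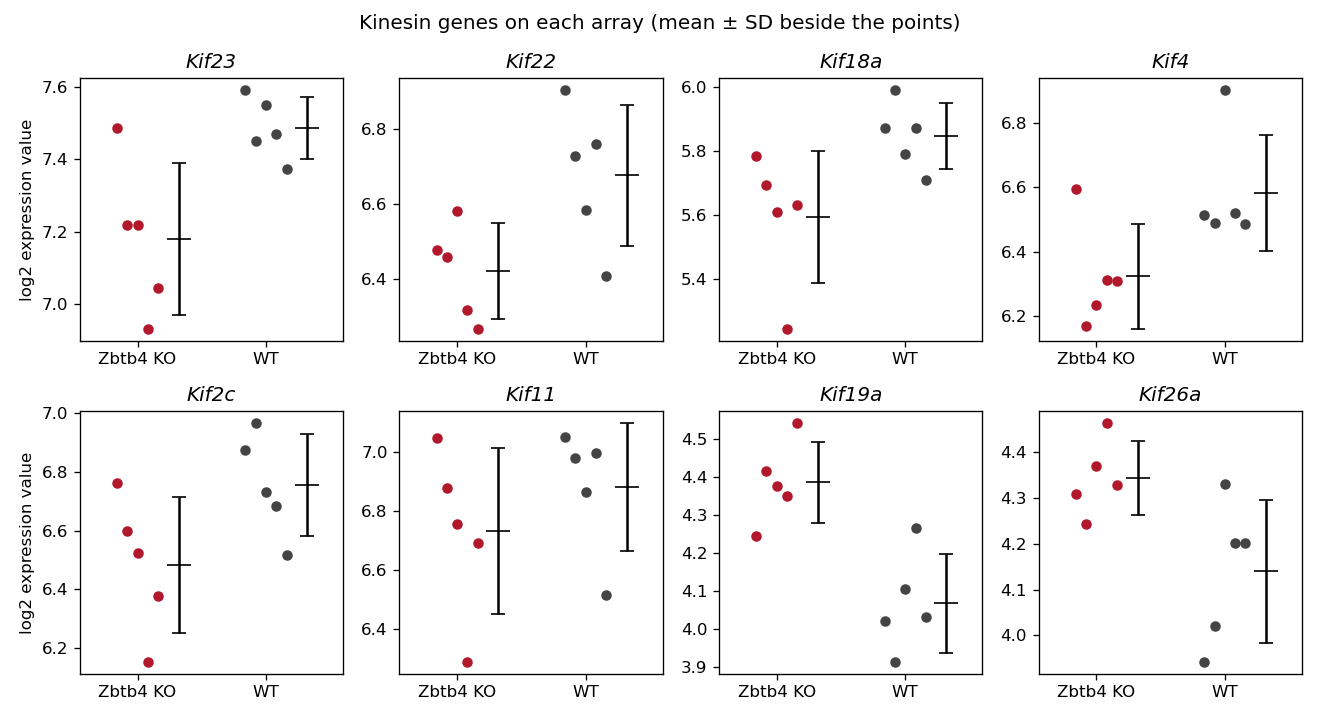
Log2 expression values of 8 kinesin genes, with each point an array (arrays 1 to 5 from left to right within a genotype, knock-out left and wild type right) and the mean and SD beside the points; each panel has its own vertical range. Every panel shows some overlap, and knock-out array 4 is lowest for Kif23, Kif18a, Kif2c and Kif11.

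Kif11, the motor that pushes the spindle poles apart, had 7.05, 6.88, 6.76, 6.29 and 6.69 on the knock-out arrays, against 7.05, 6.98, 6.87, 6.998 and 6.51 on the wild-type arrays. The groups overlapped widely, and the difference of -0.15 ± 0.14 (SE; limma adjusted p = 0.885) was -0.038 when knock-out array 4 was left out and -0.24 when wild-type array 5 was. Kif15, which can stand in for Kif11, differed by -0.22.

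The 3 mitotic members without a lower mean were Kifc1, Kifc5b and Kif2b. Kifc1, a motor that walks towards microtubule minus ends and focuses spindle poles, had the widest spread of the knock-out group, from 4.79 on array 4 to 6.16 on array 1, against 5.05 to 5.54 in wild-type cells, with a difference of 0.076. Its near-identical paralogue Kifc5b, also on chromosome 17, differed by 0.29 ± 0.18 (SE; limma adjusted p = 0.842), with wild-type array 1 at 3.85 and the other wild-type arrays from 4.59 to 5.002. The probes of the 2 genes may detect each other's transcript, so their values are uncertain. Kif2b, below the level of 3.67 that marks the dimmest 40% of genes, differed by 0.013.

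The mitotic kinesins followed a common pattern over the arrays that cut across genotype. Knock-out array 4 was the lowest of the 10 arrays for 9 of the 14 mitotic members, and knock-out arrays 4 and 5 lay below the gene's own mean for 13 of 14 each. Wild-type array 5 lay below it for 12 of 14, while knock-out array 1 lay above it for 12 of 14. The mean deviation of the 14 genes was 0.20, -0.043, -0.022, -0.31 and -0.17 on knock-out arrays 1 to 5, against 0.054, 0.16, 0.12, 0.11 and -0.11 on wild-type arrays 1 to 5. Thus 1 knock-out array lay above all wild-type arrays and 1 wild-type array lay below 3 of the 5 knock-out arrays. The means include the uncertain genes Kifc1, at 0.789 on knock-out array 1, and Kifc5b, at -0.895 on wild-type array 1. The top rank of knock-out array 1 therefore leans on these genes, and it was the highest of the 10 arrays for 2 of the 14. The other 28 kinesins had mean deviations from -0.057 to 0.029 in knock-out and from -0.059 to 0.053 in wild-type arrays.

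**Figure D3:**
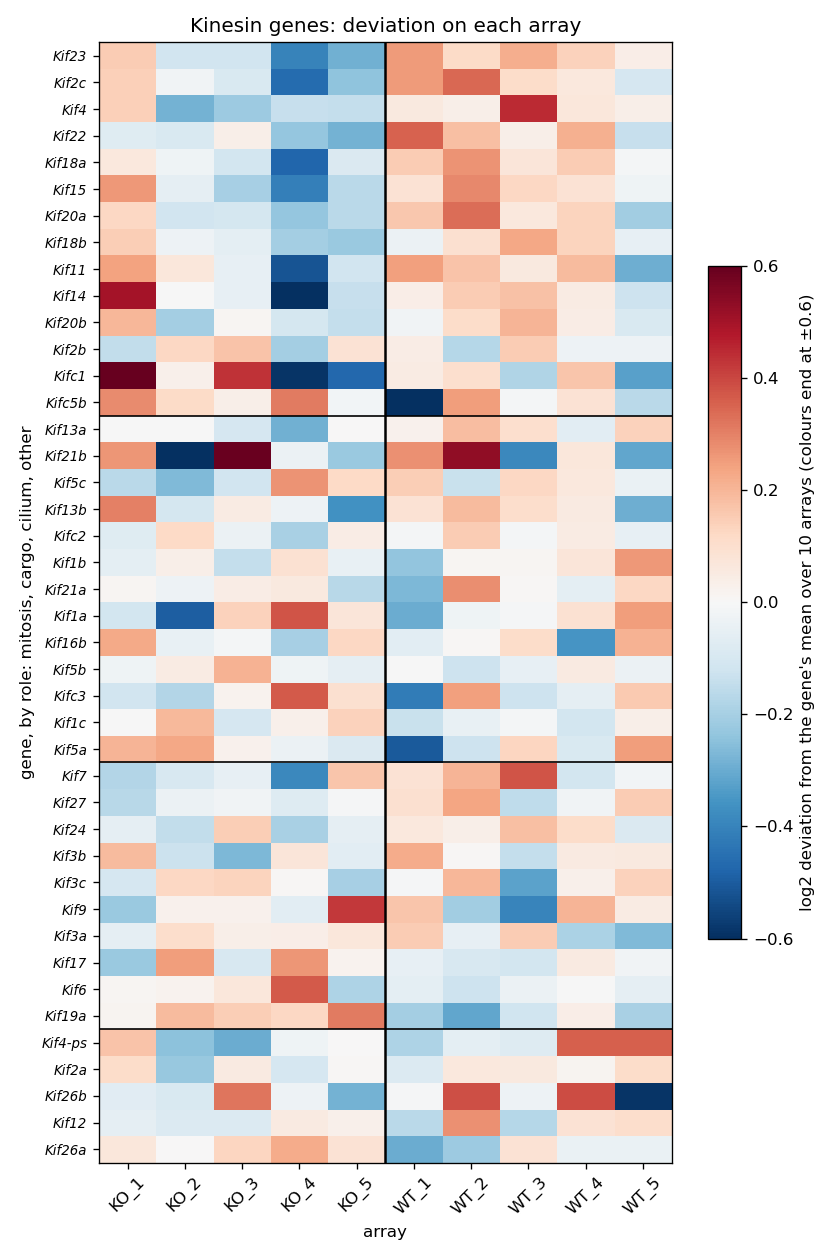
Deviation of each kinesin gene (rows, grouped by role) from its own mean over the 10 arrays (columns, knock-out left of wild type), on the log2 scale with colours ending at ±0.6. The mitotic block is blue on knock-out arrays 4 and 5 and partly on wild-type array 5, and red on knock-out array 1 and wild-type arrays 1 to 4 for most genes.

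Genes that work with the mitotic kinesins were low on the same arrays. The knock-out mean was lower for all 21 measured spindle partners, whose median difference was -0.20, and 5 of them had an unadjusted p under 0.05, against 2.73% of all genes with a lower mean at that threshold; none passed over all genes. The list holds Cenpe, a mitotic kinesin without a Kif symbol, which differed by -0.13. Aurkb, the kinase of the chromosomal passenger complex, differed by -0.31, Tpx2, which encodes an activator of Aurora A, by -0.25, the citron kinase gene Cit by -0.26 and Racgap1, which encodes the partner of Kif23 in centralspindlin, by -0.27. Their mean deviation was 0.18, -0.022, -0.026, -0.38 and -0.20 on knock-out arrays 1 to 5, against 0.089, 0.15, 0.20, 0.16 and -0.15 on wild-type arrays 1 to 5. Knock-out array 1 thus lay above 3 of the wild-type arrays 1 to 4, and wild-type array 5 below 3 knock-out arrays. Of 7 proliferation markers 6 had a lower knock-out mean, with a median of -0.19, and Rrm2, a ribonucleotide reductase subunit gene, was the 1 with a higher mean, at 0.16. The proliferation marker Mki67 averaged 8.29 ± 0.19 on the knock-out arrays, against 8.49 ± 0.22 on the wild-type arrays (SD, n = 5 per genotype; adjusted p = 0.842 in limma).

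The mean of the skeletal muscle genes ran the other way on the same arrays, though not every member did. Among wild-type arrays, array 5 was highest for Acta1, Des, Mylpf, Tnnc2 and Myh3, but not for Myod1, Tnnt3 and Myog. The mean deviation of the 8 muscle genes measured was 0.37 on knock-out array 4, 0.38 on knock-out array 5 and 0.37 on wild-type array 5, while the other arrays ranged from -0.11 to -0.033 in knock-out and from -0.33 to -0.076 in wild-type cells. Of these genes 7 of 8 lay above the dimmest 40% and 6 of 8 had a higher knock-out mean, with the fast muscle myosin light chain gene Mylpf ranging from 4.38 to 6.79 in knock-out and from 4.64 to 6.74 in wild-type cells. The skeletal actin gene Acta1 was the 1 muscle gene of 8 with an unadjusted p under 0.05, where 5.98% of all genes passed. Acta1 had 8.36, 8.99, 9.01, 9.03 and 8.97 on the knock-out arrays, against 7.82, 7.68, 8.21, 8.28 and 9.09 on the wild-type arrays. The difference was 0.66 ± 0.23 (SE, limma adjusted p = 0.821). All knock-out arrays lay above wild-type arrays 1 to 4, and wild-type array 5 was the highest of the 10. The part of these genes in the kinesin differences was not tested. Without those 3 arrays, which left 3 knock-out and 4 wild-type arrays, 10 of 14 mitotic kinesins had a lower mean with a median difference of -0.12. Kif23 then differed by -0.21, Kif22 by -0.24 and Kif4 by -0.27.

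**Figure D4:**
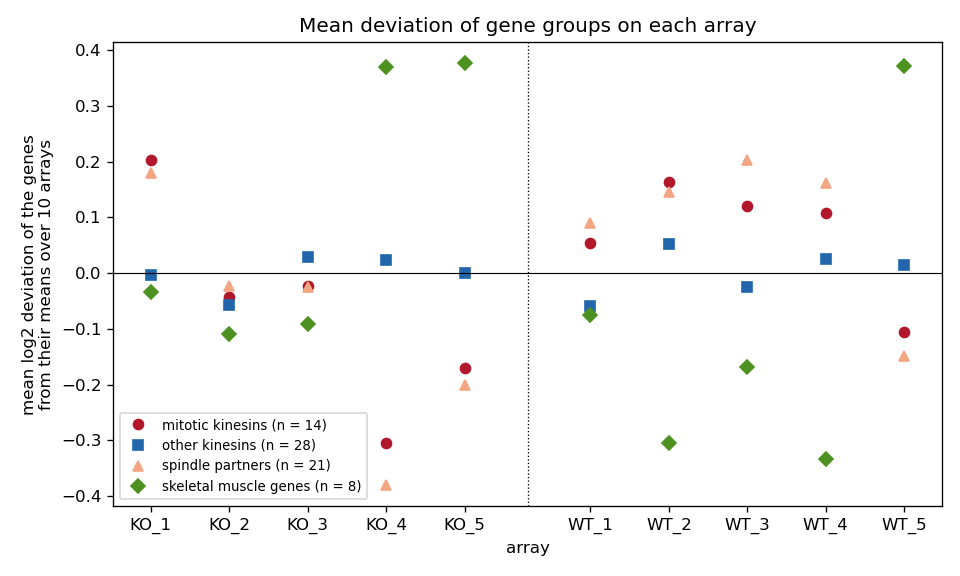
Mean log2 deviation (vertical axis) of 4 gene groups on each array (knock-out left, wild type right), with 1 point per group and array. Mitotic kinesins and spindle partners are low and skeletal muscle genes high on knock-out arrays 4 and 5 and wild-type array 5, while the other kinesins stay near 0.

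The arrays were also compared by the level of Y-linked genes, which separates the sexes. Within the 2 knock-out and 2 wild-type arrays with a high level, 10 of 14 mitotic kinesins had a lower mean, with a median difference of -0.080. Within the 3 knock-out and 3 wild-type arrays with a low level, 12 of 14 had a lower mean and the median was -0.27. Kif23 differed by -0.22 and -0.37, Kif22 by -0.21 and -0.29, and Kif4 by -0.29 and -0.24. The test of the difference between these subsets passed for none of the 42 kinesins (limma interaction, smallest adjusted p = 0.841).

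The cargo kinesins had differences on both sides of 0, and 0 of the 13 had an unadjusted p under 0.05, where 5.98% of all genes did, a share too small to read anything from that count. Of these, 8 had a lower and 5 a higher mean, with a median of -0.032. Kif5b, the widely expressed heavy chain of conventional kinesin, had 8.69, 8.77, 8.92, 8.69 and 8.66 on the knock-out arrays, against 8.71, 8.59, 8.67, 8.77 and 8.68 on the wild-type arrays. The groups overlapped, with a difference of 0.061 ± 0.075 (SE; 95% interval from -0.10 to 0.22), and a second probe set of the gene gave -0.14, so the direction is not settled. Kif1b, which carries mitochondria and synaptic vesicle precursors, had 6.88, 6.98, 6.80, 7.03 and 6.90 on the knock-out arrays, against 6.71, 6.95, 6.95, 7.01 and 7.20 on the wild-type arrays. The lowest and the highest value were both wild type, and the difference was -0.049 ± 0.092 (SE; 95% interval from -0.25 to 0.15).

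Kif13a, which moves recycling endosomes, had the smallest unadjusted limma p-value among the cargo kinesins. It averaged 5.998 ± 0.12 on the knock-out arrays, against 6.15 ± 0.098 on the wild-type arrays (SD, n = 5 each). The limma difference was -0.16, with an adjusted p of 0.840. Kif1c differed by 0.10 and Kif16b, a motor of early endosomes, by 0.038. Kif1a and Kif5a, best known from neurons, differed by -0.0056 and 0.14, and of 10 neuronal markers 5 had a higher and 5 a lower mean. Kif21b varied most of this group between arrays, with an SD of 0.43 over the 10 arrays, and differed by -0.068. The remaining cargo kinesins Kif5c, Kif13b, Kifc2, Kif21a and Kifc3 lay between -0.063 and 0.078.

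Ciliary kinesins were split evenly, with 5 of 10 means higher and 5 lower. Kif19a, which shortens microtubules at ciliary tips and so limits cilium length, had the smallest unadjusted limma p-value of the whole family. Its values were 4.25, 4.42, 4.38, 4.35 and 4.54 on the knock-out arrays, against 4.02, 3.92, 4.11, 4.27 and 4.03 on the wild-type arrays. The groups overlapped only between knock-out array 1 and wild-type array 4. The difference was 0.32 ± 0.085 (SE), a 1.246-fold higher signal with a 95% interval from 0.13 to 0.50 (limma adjusted p = 0.804; exact permutation p = 0.0159), and it was 0.27 without the 3 arrays high in muscle genes. Of 7 markers of ciliated epithelium 6 had a higher mean, with Rsph1 at a difference of 0.31, but 5 of the 7 lay within the dimmest 40% of genes, and their mean deviation ranged from -0.062 to 0.16 on knock-out arrays and from -0.13 to 0.046 on wild-type arrays. Their part in the Kif19a difference was not tested. Kif19a lies on chromosome 11, as does Zbtb4. So do the kinesin genes Kif1c, Kif3a, Kif18b and Kif2b, which differed by 0.10, 0.079, -0.15 and 0.013. The part of this location in the differences was not tested.

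Kif3a, a subunit of the motor that carries material up the cilium, had 6.22, 6.38, 6.31, 6.32 and 6.34 on the knock-out arrays, against 6.43, 6.23, 6.43, 6.09 and 6.01 on the wild-type arrays. The wild-type arrays spread over a wider range that enclosed the knock-out arrays, with a difference of 0.079 ± 0.093 (SE; 95% interval from -0.12 to 0.28). Its partner Kif3b differed by -0.079 and Kif3c by -0.015. Kif7, a regulator of Hedgehog signalling at the ciliary tip, averaged 5.29 ± 0.20 on the knock-out arrays, against 5.50 ± 0.19 on the wild-type arrays (SD, n = 5 each). The limma difference was -0.22, with an adjusted p of 0.840, while its second probe set gave -0.035. Kif24, which restrains cilium growth from the centriole, differed by -0.12, and Kif27, Kif9, Kif6 and Kif17 lay between -0.12 and 0.11.

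In the remaining group, Kif26a, a family member without motor activity, had 4.31, 4.24, 4.37, 4.46 and 4.33 on the knock-out arrays, against 3.94, 4.02, 4.33, 4.20 and 4.20 on the wild-type arrays. Wild-type array 3 alone lay within the knock-out range, and the difference was 0.20 ± 0.087 (SE; limma adjusted p = 0.821; exact permutation p = 0.0317). Its relative Kif26b ranged over both genotypes and differed by -0.061. Kif2a, which takes microtubules apart in neurons and at spindle poles, had 8.69, 8.35, 8.63, 8.48 and 8.58 on the knock-out arrays, against 8.50, 8.64, 8.64, 8.59 and 8.69 on the wild-type arrays, with a difference of -0.065 ± 0.081 (SE; 95% interval from -0.24 to 0.11). The knock-out arrays covered nearly the whole wild-type range. Kif2a is left out of the mitotic counts despite its place at spindle poles. Kif12 and the pseudogene Kif4-ps, whose probes may detect Kif4, differed by -0.054 and -0.16.

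For the machinery that kinesins work with outside mitosis, counts at an unadjusted p under 0.05 stand beside 5.98% of all genes. Of 13 genes of kinesin light chains and cargo adaptors 9 had a lower mean and none had an unadjusted p under 0.05; the light chain gene Klc4 differed by 0.24 and the mitochondrial adaptor gene Trak1 by -0.13. Of 19 genes of dynein and dynactin, the motor that walks the opposite way, 11 had a higher mean and 1, the dynactin subunit gene Dctn3 at 0.23, had an unadjusted p under 0.05. Of 15 tubulin genes, which encode the track itself, 10 had a lower mean, and Tuba8, at 0.44, was the one with an unadjusted p under 0.05. None of these genes passed over all genes.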

How the data were processed

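The authors' deposited log2 values of 10 one-colour Affymetrix arrays were used; their range points to that scale, and for their background correction and normalization the sources used here name no method. Nothing on signal over background came with them. Array medians lay between 3.89 and 3.93, and pairs of arrays correlated between 0.989 and 0.994. Of 41345 probe sets, 23521 had 1 symbol in the platform annotation, 1814 several and 16010 none; each gene took its probe set with the highest mean, which gave 22180 genes. The kinesins had 45 such probe sets, with 3 genes having more than 1, and 1 further probe set, shared by Kif3c and another gene, was not used. Differences were fitted over all genes with lmFit and eBayes in limma 3.58.1 (R 4.3.3), and p-values adjusted by the Benjamini-Hochberg method; single genes also had an exact two-sided permutation test over 252 splits. The number of arrays limits the precision (median SE 0.101). The fit was tested on simulated data.

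Members and role lists were chosen with earlier results of these data known. Values on all arrays are given for the 6 members with the smallest unadjusted limma p-values and for 10 members set by name. The 10 are Kif11, Kif23, Kif20a, Kif2c, Kif18a, Kif4, Kif5b, Kif3a, Kif2a and Kif1b. Kif13a, Kif7 and others were added after their values were seen. Up to 4 genes per partner list with the smallest unadjusted limma p-values are named. Cenpe, Rrm2, Col1a2, Mylpf, Tnnc2, Myh3 and Myog were chosen after their values were seen. Lists were described by counts and medians. Alternatives were quantile normalization, median centring, leaving out the dimmest 40% of genes, averaging probe sets, eBayes with trend and robust, array weights, a block for the replicate number, the Y-linked level as a covariate, other thresholds and leaving out each array. Comparisons within arrays of high or low Y-linked level and without the 3 arrays high in muscle genes were chosen after seeing the data. Promoter sequences are from RefSeq (GRCm38.p6). Figures were drawn with matplotlib 3.10.9.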

Additional observations from a re-analysis of the deposited data

Results flagged for a closer look

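Among 28 groups of 5 arrays (Zbtb4 and 13 kinesin genes in each genotype), 1 held an array whose gap to the nearest other array exceeded Dixon's critical value of 0.71; chance gives about 1 in 20. It was Kif4 on wild-type array 3, at 6.90, with the nearest wild-type array at 6.52 and a gap of 0.924 of the group's range. Without that array the difference of Kif4 was -0.18 in place of -0.26.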

How the results depend on the processing

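No kinesin passed an adjusted p under 0.05 in any of the settings run, or under 0.1; at an unadjusted p under 0.05 there were 7 kinesins and 1326 genes in all. Leaving out single arrays gave 0 to 1 genes called over all genes, the 1 without wild-type array 5. The median of the mitotic kinesins was below 0 in every setting run, from -0.25 without knock-out array 1 to -0.13 without knock-out array 4, and from -0.21 to -0.14 under the other planned settings, and it was -0.080 and -0.27 within arrays of high and low Y-linked level. The median of all kinesins lay between -0.076 and -0.026 when 1 array was left out, nearest 0 without wild-type array 2, and was 0.016 within arrays of high and -0.15 within arrays of low Y-linked level. The median of the non-mitotic kinesins was not stable, from -0.049 to 0.029 with single arrays left out (0.029 without wild-type array 2, 0.0024 without array 5), and 0.081 and -0.084 within arrays of high and low Y-linked level. Among the 13 kinesins given on all arrays, turned signs were those of Kif1b, 0.010 without wild-type array 5 (-0.11 to 0.010 over the single arrays left out) and 0.011 within arrays of high Y-linked level, Kif5b, -0.038 with probe sets averaged, and Kif2a and Kif3a, 0.091 and -0.16 within arrays of high Y-linked level; the cause was not tested. Over all 42 kinesins, the sign turned for 15 within arrays of high Y-linked level, for 3 within arrays of low level and for 4 without the 3 arrays high in muscle genes. The exact permutation test, unadjusted, gave p-values from 0.0159 to 0.0476 for Kif23, Kif22, Kif18a, Kif4, Kif19a and Kif26a and 0.0794 for Kif2c. With the replicate number as a block, the difference of Kif23 stayed at -0.31 and 0 genes were called. Same-numbered arrays of the genotypes correlated in their deviations between -0.046 and 0.17. Y-linked genes were high on arrays 1 and 3 of both genotypes, so these values do not settle whether the numbers pair the arrays.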

Other observations

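Kifc1, chosen here after its values were seen, differed by 0.68 between the 2 knock-out and 2 wild-type arrays with a high Y-linked level and by -0.32 between the 3 and 3 arrays with a low level (limma interaction, adjusted p = 0.841). Its values were 6.16 and 5.81 on knock-out arrays 1 and 3, against 5.43 and 5.19 on wild-type arrays 1 and 3, and 5.40, 4.79 and 4.90 on knock-out arrays 2, 4 and 5, against 5.48, 5.54 and 5.05 on wild-type arrays 2, 4 and 5.

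Of 10 markers of macrophages and other leukocytes 9 had a higher knock-out mean, with a mean deviation from -0.48 to 0.80 on knock-out arrays and from -0.24 to 0.091 on wild-type arrays. Of 10 endothelial markers 7 had a higher knock-out mean, with 7 of the 10 within the dimmest 40% of genes. For Cdh5, at 0.61 (limma adjusted p = 0.628), and Esam, at 0.18, the knock-out arrays lay above all wild-type arrays. Both were among the 7 within the dimmest 40%, and 0.987% of all genes had groups without overlap. Of 7 keratinocyte markers 3 had a higher knock-out mean, and 0 had groups without overlap.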
